A study of Mus musculus with 36 samples.

Results

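Dusp1, Dusp2, Dusp4, Dusp5, Dusp6, Spry1, Spry2 and Spry4 are negative feedback genes of the ERK branch of MAP kinase signalling. They were taken by symbol from a deposited table of read counts, and all 8 were found among its 32285 mouse gene identifiers. The table came from a study of how MRTFA-SRF driven transcription, cytoplasmic calcium and potassium bear on the stiffness of cancer cells. RNA was sequenced from AT-3 cells, a mouse line derived from an MMTV-PyMT mammary tumour, and from E0771 cells, a mouse mammary adenocarcinoma line. In each line 6 conditions were applied for 24 h, with 3 libraries each. They were DMSO (the vehicle), 10 µM NS11021, 10 µM BMS204352, 40 mM KCl, KCl with NS11021 and KCl with BMS204352. NS11021 and BMS204352 open calcium-activated potassium channels of large conductance, and added KCl depolarises cells. The labels name no genetic change in any group, and no condition controlled for chloride or osmolarity, so that these and potassium cannot be told apart in a KCl comparison. They do not say whether the 3 libraries of a group came from separate cultures, so p-values measure the spread between these libraries, which may be technical.

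The AT-3 libraries summed to between 38.5 M and 52.6 M counts and those of E0771 to between 31.2 M and 47.9 M. Some BMS204352 libraries stood apart from their group. On the first principal component of the AT-3 libraries, which held 29.5% of the variance, BMS204352 replicate 3 lay at 43.2 and the other replicates at 7.42 and 11. KCl with BMS204352 replicate 3 lay at 22.0, against 1.23 and 4.44. In E0771, BMS204352 replicate 3 lay at 17.5 on the third component (5.54% of the variance), against 2.09 and -1.6. Calls of the 8 genes that were gained or lost without these 3 libraries are given both ways. Mitochondrial reads were 0.687% to 0.792% of the counts in the AT-3 libraries with KCl and BMS204352, and 0.49% to 0.608% in the other AT-3 libraries. In E0771 they were 0.522% to 0.887% with BMS204352 and 0.789% to 1.032% with KCl and BMS204352, against 0.626% to 0.72% in DMSO. Breast epithelial markers split by line. The median of Epcam was 137 CPM (counts scaled to the library total) in AT-3 and 0.0549 CPM in E0771, and that of Cdh1 was 429 and 0.879 CPM. Krt8 stood at 0.277 CPM in AT-3 and 182 CPM in E0771, where Krt18 and Krt19 had a median of 0. All 4 leukocyte markers (Ptprc, Cd3e, Adgre1 and Csf1r) stayed under 1 CPM in every library. Counts of a bulk culture cannot tell less RNA per cell from fewer cells that express a gene.

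Growth factor receptors activate ERK through Ras, Raf and MEK, and active ERK switches on the genes of its own inhibitors. The dual-specificity phosphatases (DUSPs) remove the activating phosphates from MAP kinases. Dusp6 acts on ERK in the cytoplasm and Dusp5 on ERK in the nucleus, while the nuclear Dusp1, Dusp2 and Dusp4 also act on the stress kinases p38 and JNK to differing degrees. Sprouty proteins act upstream of the phosphatases, where they dampen the signal between receptor tyrosine kinases and Raf. Because these transcripts are short-lived and follow ERK activity, they are widely read as a trace of recent signalling. Dusp1 in particular is also an immediate-early gene of calcium, cAMP and stress signals.

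The 8 protein-coding genes lie on 8 chromosomes of GRCm38 (GENCODE vM21). Dusp1 is annotated at chr17:26505590-26562128 on the minus strand, and on the plus strand are Dusp4 at chr8:34807297-34819894, Dusp5 at chr19:53529109-53542431, Dusp6 at chr10:99263231-99267489 and Spry1 at chr3:37639947-37644598. RefSeq promoter windows (GRCm38.p6, 250 bases before to 50 bases after the start) were found for 6 of the 8 genes, Dusp1, Dusp2, Dusp5, Dusp6, Spry1 and Spry2. The 3 printed below belong to the phosphatase genes whose transcripts moved in opposite directions with KCl in E0771. In the Dusp1 window (chr17:26508423-26508722, minus strand) capitals mark a cAMP response element (CRE, TGACGTCA) and a separate CRE core (TGACG). In the Dusp5 window (chr19:53528895-53529194, plus strand) capitals mark a pair of adjoining CArG boxes, the element that serum response factor binds, and a CRE core on the other strand. No motif of those searched is in the Dusp6 window (chr10:99262981-99263280, plus strand).
Dusp1: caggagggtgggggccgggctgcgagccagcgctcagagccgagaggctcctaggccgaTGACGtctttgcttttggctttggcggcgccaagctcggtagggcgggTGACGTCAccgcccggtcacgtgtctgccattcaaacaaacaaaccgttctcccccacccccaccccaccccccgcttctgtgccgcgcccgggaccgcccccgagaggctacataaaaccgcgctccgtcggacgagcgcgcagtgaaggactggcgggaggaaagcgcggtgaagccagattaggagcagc
Dusp5: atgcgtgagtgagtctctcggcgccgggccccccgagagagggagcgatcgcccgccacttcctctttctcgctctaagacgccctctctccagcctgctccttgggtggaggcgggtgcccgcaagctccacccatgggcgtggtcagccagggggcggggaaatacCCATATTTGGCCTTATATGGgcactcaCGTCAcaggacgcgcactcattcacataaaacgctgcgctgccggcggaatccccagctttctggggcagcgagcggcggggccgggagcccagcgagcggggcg
Dusp6: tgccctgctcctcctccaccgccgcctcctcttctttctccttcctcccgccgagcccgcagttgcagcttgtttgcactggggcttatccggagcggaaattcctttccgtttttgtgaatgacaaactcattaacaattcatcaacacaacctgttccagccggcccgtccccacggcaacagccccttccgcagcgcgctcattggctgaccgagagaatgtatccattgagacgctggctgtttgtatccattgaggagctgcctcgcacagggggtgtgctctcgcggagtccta
The Dusp1 CRE begins 143 bases before the start, at position -143, and holds a core on each strand. The separate core is at -191, and an E-box (CACGTG), not in capitals, is at -126. The Dusp5 CArG boxes begin at -82 (CCATATTTGG) and -72 (CCTTATATGG), and its CRE core at -55. In Dusp2 a core is at position 6 after the start and an E-box at -109. The search covered both strands and 7 motifs, the other 3 being the AP-1 site with letters TGANTCA, the ETS site with letters CCGGAAGT and the TATA box with letters TATAAA. It found none of the 7 in the Dusp6, Spry1 and Spry2 windows. Of all 32851 windows of the table, 1.79% held the CRE, 20.8% the core, 1.63% a CArG box, 7.81% the AP-1 site, 3.89% the ETS site, 7.15% the E-box and 13.6% the TATA box. These are matches of letters, and binding was not measured here.

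The DMSO cultures of the 2 lines held these inhibitors in different proportions. TPM are counts divided by exon length and then scaled to the sum of these values in the library, given as mean ± SD (n = 3). In AT-3 the most abundant per length were Spry2 at 57.0 ± 6.0 TPM, Spry1 at 51.5 ± 4.15 TPM and Dusp6 at 43.1 ± 3.03 TPM. Spry2 and Spry1 did not differ beyond their spread. Dusp4 followed at 15.3 ± 1.99 TPM, Dusp1 at 12.1 ± 0.27, Spry4 at 8.3 ± 0.916, Dusp5 at 2.82 ± 0.22 and Dusp2 at 0.459 ± 0.128 TPM. In E0771 Dusp4 led at 150 ± 4.08 TPM, ahead of Dusp6 at 48.9 ± 4.53 TPM. Dusp5 (33.1 ± 3.28 TPM), Spry2 (27.4 ± 2.67) and Dusp2 (25 ± 4.51) came next, and the SD range of each overlapped that of its neighbour in this order. Dusp1 (18.4 ± 0.527 TPM) and Spry4 (17.3 ± 1.25) also had overlapping SD ranges, and Spry1 was lowest at 3.03 ± 0.385 TPM.

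Between the lines in DMSO, 7 of the 8 genes differed (edgeR quasi-likelihood test, Benjamini-Hochberg adjusted p below 0.05), where 74.5% of all genes did (34.1% higher and 40.4% lower in E0771). The members' share is thus near that of the transcriptome. Dusp2 was 55.3-fold higher in E0771 (log2 difference 5.79 ± 0.28 SE, adjusted p = 3.09e-19), Dusp5 11.9-fold higher and Dusp4 9.97-fold higher. Spry1 was 16.7-fold lower in E0771 (log2 -4.06 ± 0.27, adjusted p = 1.29e-13) and Spry2 2.05-fold lower. Spry4 was 2.12-fold and Dusp1 1.54-fold higher in E0771, and Dusp6 did not pass (log2 0.21 ± 0.14, adjusted p = 0.18). The median log2 difference of all genes was -0.094. Dusp5 and Spry1 share 22.1% and 24.4% of their exon bases with genes on the other strand, and the strand setting of the counting is not given in the sources used here, so reads of the partner genes could not be told apart.

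**Figure D1:**
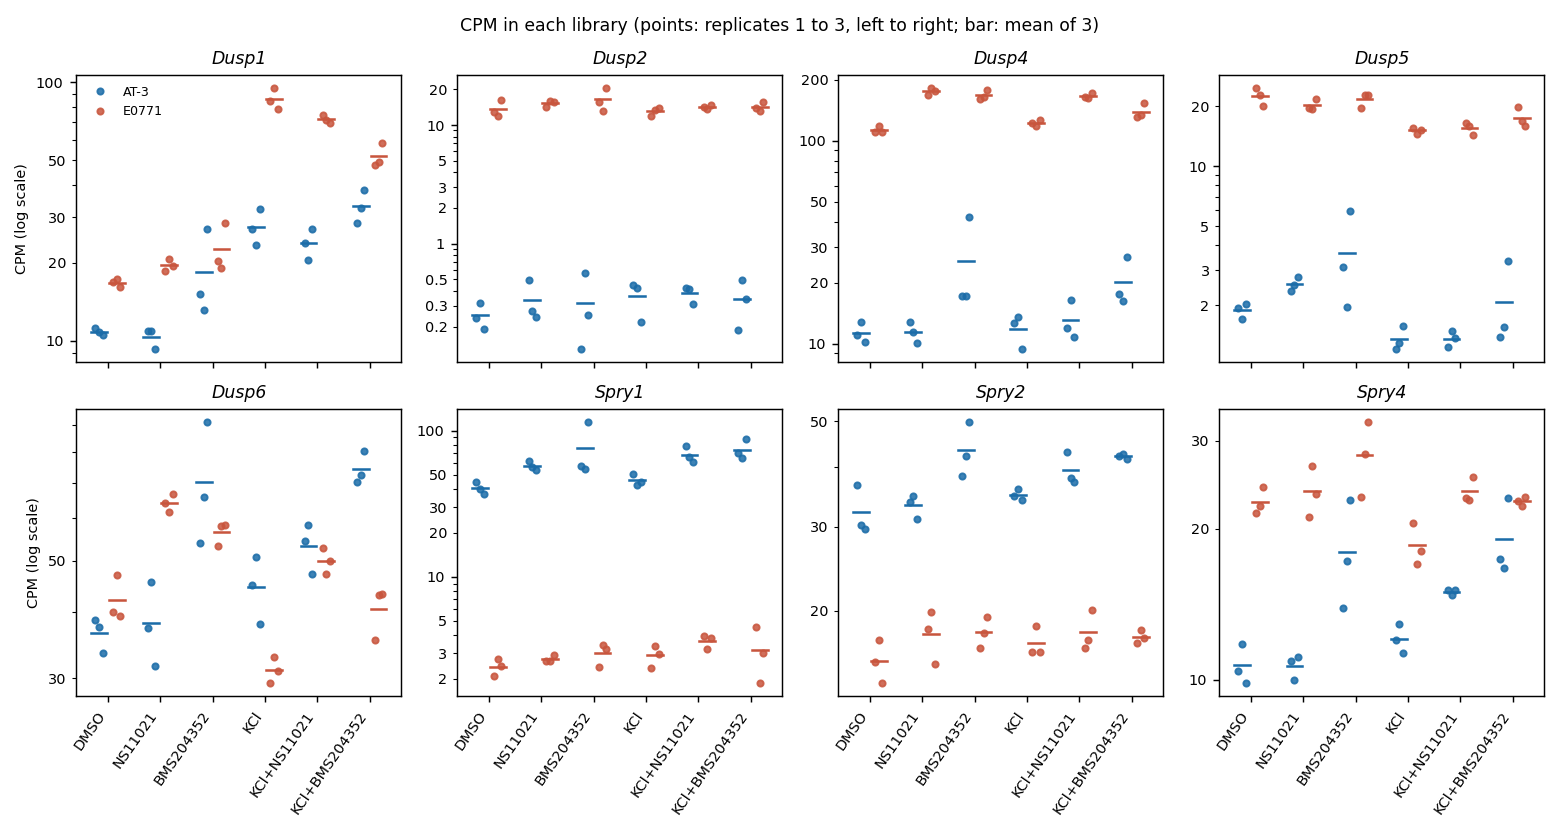
CPM (log axis) of the 8 genes in each of the 36 libraries by condition. Points are replicates 1 to 3 from left to right and bars their means. Dusp1 steps up in every KCl group of both lines, and AT-3 BMS204352 replicate 3 is the highest AT-3 library for Dusp4, Dusp6 and Spry1.

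KCl raised Dusp1, the inducible phosphatase of ERK and the stress kinases, in both lines. In AT-3 Dusp1 read 11.2, 10.8 and 10.5 CPM in DMSO (10.8 ± 0.333 CPM, SD, n = 3) and 27.1, 23.4 and 32.2 CPM in KCl (27.6 ± 4.4). All 3 KCl libraries lay above all 3 DMSO libraries, and the rise was 2.56-fold (log2 1.36 ± 0.22 SE, adjusted p = 0.00233). In E0771 it read 16.8, 17.3 and 16.1 CPM in DMSO (16.7 ± 0.623) and 84.4, 95.3 and 78.8 CPM in KCl (86.1 ± 8.38). The groups were again far apart, with a 5.18-fold rise (log2 2.37 ± 0.12, adjusted p = 1.59e-11). The KCl effect on Dusp1 was 2.01-fold larger in E0771 than in AT-3 (difference of log2 changes 1.01 ± 0.26, adjusted p = 0.013). These calls held under every alternative analysis.

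The ERK-selective phosphatases went the other way in E0771. Dusp5, which acts on ERK in the nucleus, read 24.8, 22.7 and 20.1 CPM in DMSO and 15.6, 14.5 and 15.2 CPM in KCl. The groups did not overlap, and the transcript was 1.48-fold lower in KCl (log2 -0.57 ± 0.10, adjusted p = 2.79e-05). Dusp6, its cytoplasmic counterpart, read 40.0, 47.0 and 39.4 CPM in DMSO and 29.4, 32.9 and 31 CPM in KCl. Here too every KCl library was below every DMSO library, a 1.34-fold fall (log2 -0.43 ± 0.08, adjusted p = 3.34e-05). Spry4 went from 22.7 ± 1.46 to 18.6 ± 1.86 CPM (log2 -0.27 ± 0.11, adjusted p = 0.041), a call that was lost on leaving out DMSO replicate 2 or 3 or KCl replicate 2 or 3. Dusp4 (log2 0.12 ± 0.05, adjusted p = 0.0742), Dusp2, Spry1 and Spry2 did not pass. At the same size Dusp4 did pass without the libraries that stood apart (adjusted p = 0.0357), with the replicate number as a block (0.0417), with the compared groups alone (0.014) and with no filter (0.0496). In all, 1 of the 8 genes rose and 3 fell in E0771, against 36.4% of all genes called (17.8% higher and 18.6% lower), so this count is close to that of the whole transcriptome. Marker sums moved with KCl in E0771 as well. The 5 epithelial markers summed to 157 to 166 CPM in KCl against 202 to 207 CPM in DMSO, and the 4 fibroblast markers to 140 to 146 against 174 to 193 CPM. Few genes carried the sums in E0771. Krt8 had a median of 182 CPM, and the other epithelial markers stayed at or under 1.8 CPM. Dcn and Lum had 0 counts in every E0771 library, so the fibroblast sum was that of Col1a1 and Pdgfra. Of the endothelial markers only Pecam1 exceeded 0.442 CPM in any E0771 library. The 4 endothelial markers summed to 2.01 to 4.34 CPM against 0.661 to 1.02 CPM, and the 4 leukocyte markers to 0.283 to 0.476 against 0 to 0.115 CPM. Their part in the result was not tested.

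In AT-3, Dusp1 was the one member of the 8 called with KCl, where 4.83% of all genes were and 3.08% were higher (714 genes in both directions). With the replicate number as a block 1124 genes were called, and again 1 member. Dusp6 read 44.9, 50.7 and 38 CPM in KCl and 38.6, 37.5 and 33.5 CPM in DMSO. The lowest KCl library lay within the DMSO range, and the change did not pass (log2 0.29 ± 0.18, adjusted p = 0.439). Between the lines the KCl effect on Dusp6 differed, at -0.73 ± 0.20 on the log2 scale (E0771 minus AT-3, adjusted p = 0.0162). This difference was lost on leaving out any of AT-3 DMSO replicate 3, AT-3 KCl replicate 2, E0771 DMSO replicate 2 or E0771 KCl replicate 1. Dusp5 had a log2 change of -0.47 ± 0.36 in AT-3 (adjusted p = 0.56), from 1.89 ± 0.166 to 1.36 ± 0.192 CPM. In total 2 of the 8 genes had KCl effects that differed between lines, 1 with each sign, against 9.13% of all genes (4.11% positive and 5.02% negative). Spry4 was added without the libraries that stood apart (-0.44 ± 0.14, adjusted p = 0.0357), with 13.1% of all genes called.

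**Figure D2:**
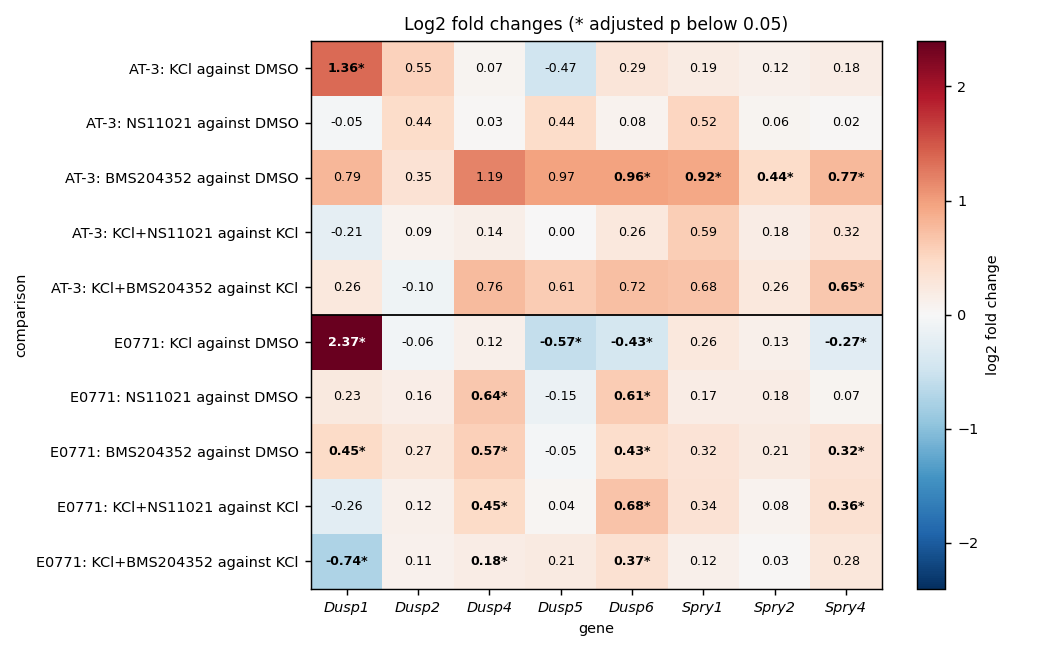
Log2 fold changes of the 8 genes (columns) in the single-agent and added-compound comparisons of each line (rows), coloured by size, with asterisks at adjusted p below 0.05. The row of E0771 KCl holds the strongest rise, Dusp1 at 2.37, beside falls of Dusp5, Dusp6 and Spry4.

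NS11021 raised a pair of phosphatases in E0771. Dusp4 read 111, 118 and 111 CPM in DMSO and 168, 183 and 177 CPM with NS11021. All treated libraries lay above all DMSO libraries, a 1.55-fold rise (log2 0.64 ± 0.05, adjusted p = 1.05e-09). Dusp6 read 64.2, 61.8 and 66.7 CPM with NS11021, again above all DMSO libraries (39.4 to 47.0 CPM), and rose 1.52-fold (log2 0.61 ± 0.07, adjusted p = 4.36e-07). These 2 of 8 members were the ones that passed, where 26.3% of all genes did and 12.8% were higher. Spry4 (log2 0.07 ± 0.10) and Dusp5 (log2 -0.15 ± 0.10) did not pass. Dusp1, at 19.6 ± 1.05 CPM with NS11021 against 16.7 ± 0.623 CPM, did not pass either (log2 0.23 ± 0.12, adjusted p = 0.189), but it did without the 3 BMS204352 libraries that stood apart (adjusted p = 0.0216). The epithelial markers summed to 213 to 228 CPM with NS11021 and 202 to 207 CPM in DMSO. The fibroblast markers summed to 151 to 155 CPM and 174 to 193 CPM. The part of these shifts in the result was not tested.

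In AT-3, NS11021 changed none of the 8 genes by edgeR or by DESeq2, and none had an unadjusted p below 0.05, while 0.0745% of all genes were called (11 genes, or 42 with the replicate number as a block, which also left 0 members). The member furthest from DMSO was Spry1, which like Spry2 is abundant in AT-3. It read 44.5, 40.1 and 37.0 CPM in DMSO and 62.2, 56.9 and 53.5 CPM with NS11021. The groups did not overlap, and the log2 change was 0.52 ± 0.24 (adjusted p = 0.655). The BMS204352 group held 57.2, 54.9 and 115 CPM. Without the libraries that stood apart the same change had an SE of 0.09 and passed (adjusted p = 0.00535). Dusp4 (log2 0.03 ± 0.33) and Dusp6 (log2 0.08 ± 0.18) had wide intervals in AT-3, and the difference between lines in the NS11021 effect did not pass for either (Dusp4 0.60 ± 0.34, adjusted p = 0.372, and Dusp6 0.52 ± 0.19, adjusted p = 0.132). Of all genes 3.99% passed that test and of the 8 members 0, with 1 at an unadjusted p below 0.05 and 0 by DESeq2. Without the 3 libraries both differences passed, at adjusted p = 0.0178 for Dusp4 and 0.0283 for Dusp6, with 7.2% of all genes called.

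BMS204352 raised ERK phosphatase and Sprouty transcripts in AT-3. Dusp6 read 54.0, 65.9 and 91.1 CPM against 38.6, 37.5 and 33.5 CPM in DMSO. Every treated library was above every DMSO library, a 1.94-fold rise (log2 0.96 ± 0.18, adjusted p = 0.00898). Spry4 read 13.9, 17.3 and 22.8 CPM against 10.4, 11.8 and 9.85 CPM, with no overlap, and rose 1.7-fold (log2 0.77 ± 0.15, adjusted p = 0.00645). Spry2 read 38.3, 42.3 and 49.8 CPM against 36.8, 30.2 and 29.7 CPM and rose 1.36-fold (log2 0.44 ± 0.09, adjusted p = 0.0119). Spry1 read 57.2, 54.9 and 115 CPM and rose 1.89-fold (log2 0.92 ± 0.24, adjusted p = 0.0479). In all 4 genes replicate 3 was the highest library and the other replicates were still above DMSO.

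The other 4 phosphatase genes did not pass in AT-3 at the main settings, though some alternatives called Dusp4, Dusp1 or Dusp5. Dusp4 read 17.3, 17.2 and 42.1 CPM with BMS204352 against 11.1, 12.8 and 10.2 CPM in DMSO (log2 1.19 ± 0.33, adjusted p = 0.0551). Dusp1 read 15.2, 13.2 and 27.1 CPM (log2 0.79 ± 0.22, adjusted p = 0.0539), and Dusp5 3.11, 1.96 and 5.96 CPM (log2 0.97 ± 0.34, adjusted p = 0.0995). The change of the scarce Dusp2 was log2 0.35 ± 0.63 (adjusted p = 0.801). By DESeq2 both Dusp4 (adjusted p = 0.00947) and Dusp1 (0.00305) passed. In edgeR both passed with a filter of 1 CPM in 3 libraries (0.0433 each) and without BMS204352 replicate 1 or 2. Dusp1 also passed with the replicate number as a block (0.0235), and Dusp5 without BMS204352 replicate 2 (0.0232). Replicate 3 lay furthest from DMSO in Dusp4, Dusp1 and Dusp5, and the lowest Dusp5 library was within the DMSO range. At the main settings 4 of 8 members were thus called higher and 0 lower, against 3.28% of all genes called higher and 5.27% in either direction. The median log2 change was 0.85 over the 8 genes and -0.002 over all genes. The 5 epithelial markers summed to 655 to 688 CPM in these BMS204352 libraries and 580 to 622 CPM in DMSO, and the 4 endothelial markers to 2.66 to 4.28 and 1.67 to 1.92 CPM. The 4 fibroblast markers went the other way, at 14.3 to 16.6 CPM with BMS204352 and 17.0 to 20.4 CPM in DMSO. The part of these marker shifts in the result was not tested.

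Leaving out the libraries that stood apart reduced the sizes and kept the calls. In AT-3, 5 of the 8 genes were then higher, with 2.99% of all genes called. Dusp6 had a log2 change of 0.72 ± 0.15 (adjusted p = 0.0145), Spry4 0.55 ± 0.12 (adjusted p = 0.00601), Spry1 0.47 ± 0.10 (adjusted p = 0.0101) and Spry2 0.33 ± 0.09 (adjusted p = 0.043). Dusp4 passed as well, at 0.60 ± 0.16 (adjusted p = 0.0379). Dusp1 (0.39 ± 0.13, adjusted p = 0.122) and Dusp5 (0.43 ± 0.27, adjusted p = 0.566) did not. When the test was run on the DMSO and BMS204352 libraries alone, 0 of the 8 passed, with 10 genes called in the whole table, and leaving out single libraries gave between 0 and 7 (0 without DMSO replicate 3, 2 without DMSO replicate 2 or BMS204352 replicate 3, and 7 without BMS204352 replicate 2). Dusp6 and Spry4 were lost without DMSO replicate 3, Spry2 without DMSO replicate 2 or 3 or BMS204352 replicate 3, and Spry1 without any 1 DMSO library or BMS204352 replicate 3.

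**Figure D3:**
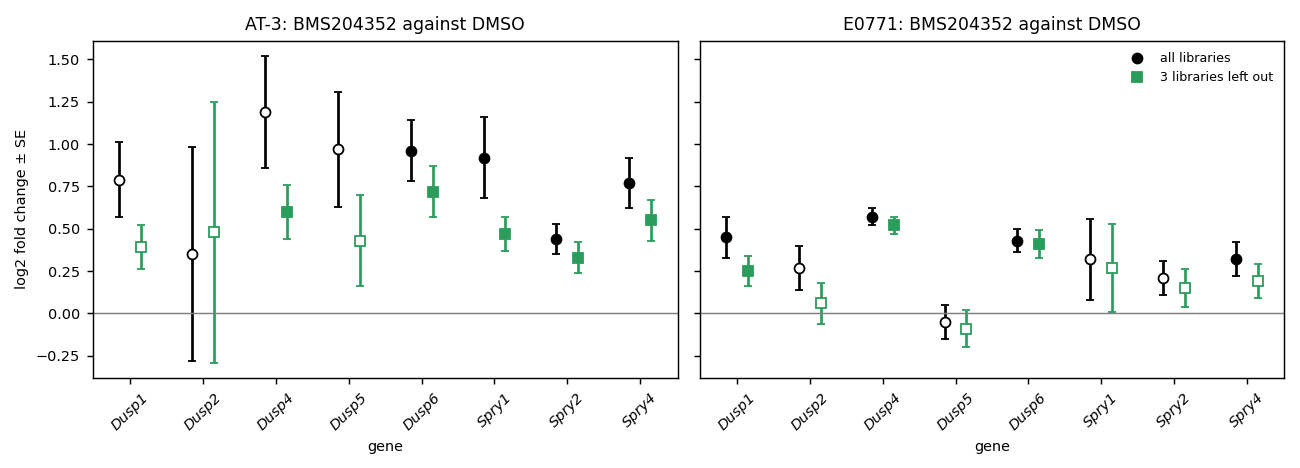
Log2 fold changes (± SE) with BMS204352 against DMSO in AT-3 and E0771, with all libraries and without the 3 BMS204352 libraries that stood apart. Filled symbols have an adjusted p below 0.05. Without those libraries AT-3 Dusp4 falls from 1.19 to 0.60 and passes, and E0771 Spry4 falls from 0.32 to 0.19 and no longer passes.

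In E0771, BMS204352 raised Dusp4 and Dusp6, measured against the same DMSO libraries as the NS11021 values. Dusp4 read 160, 164 and 179 CPM against 111, 118 and 111 CPM in DMSO, a 1.49-fold rise with no overlap (log2 0.57 ± 0.05, adjusted p = 1.36e-08). Dusp6 read 53.3, 58.0 and 58.4 CPM against 40.0, 47.0 and 39.4 CPM, a 1.35-fold rise with no overlap (log2 0.43 ± 0.07, adjusted p = 8.64e-05). Dusp1 read 20.3, 19.2 and 28.5 CPM against 16.1 to 17.3 CPM in DMSO. It passed with all libraries (log2 0.45 ± 0.12, adjusted p = 0.0118) and without replicate 3 at a smaller size (log2 0.25 ± 0.09, adjusted p = 0.0473), but not without DMSO replicate 3 (adjusted p = 0.0523). Spry4 read 23.2, 28.2 and 32.7 CPM against 21.5, 22.2 and 24.3 CPM, an overlap, and passed with all libraries (log2 0.32 ± 0.10, adjusted p = 0.026) but not without replicate 3 (log2 0.19 ± 0.10, adjusted p = 0.215), nor without DMSO replicate 1 or 2. In all, 4 of 8 members were higher and 0 lower, where 22.7% of all genes were called and 11.3% were called higher, and 3 of 8 passed without that library, with 17.2% called. The fibroblast markers summed to 146 to 169 CPM with BMS204352 and 174 to 193 CPM in DMSO, while the epithelial sums overlapped (199 to 222 and 202 to 207 CPM). The part of this shift in the result was not tested. The BMS204352 effect did not pass as different between lines for any of the 8 genes by edgeR, with 3 at an unadjusted p below 0.05 and 1 by DESeq2, against 5.01% of all genes. Dusp5 came nearest (log2 -1.03 ± 0.34, adjusted p = 0.073), followed by Dusp6 (-0.54 ± 0.19, adjusted p = 0.107). Without the libraries that stood apart these were -0.50 ± 0.22 (adjusted p = 0.251) and -0.30 ± 0.17 (adjusted p = 0.423). Dusp5 passed with the replicate number as a block (-0.97 ± 0.26, adjusted p = 0.0198), by DESeq2 (0.0321) and without AT-3 BMS204352 replicate 2 (0.00418). Without AT-3 BMS204352 replicate 1, Dusp6 (-0.67 ± 0.18, adjusted p = 0.0212) and Spry4 (0.0477) passed.

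Added to KCl in E0771, both compounds raised Dusp6 from its KCl level of 29.4, 32.9 and 31 CPM. With KCl and NS11021 it read 52.7, 47.2 and 49.8 CPM, 1.61-fold higher (log2 0.68 ± 0.08, adjusted p = 2.76e-07). With KCl and BMS204352 it read 35.5, 43.0 and 43.2 CPM, 1.29-fold higher (log2 0.37 ± 0.08, adjusted p = 0.000584). Both groups lay wholly above KCl alone. Dusp4 read 122, 119 and 126 CPM in KCl, 165, 163 and 173 CPM with NS11021 added (log2 0.45 ± 0.05, adjusted p = 7.42e-07) and 131, 134 and 153 CPM with BMS204352 added (log2 0.18 ± 0.05, adjusted p = 0.015). The Dusp4 call for BMS204352 was lost on leaving out KCl replicate 2 or KCl with BMS204352 replicate 3. Spry4 rose with NS11021 on KCl, from 18.6 ± 1.86 to 23.8 ± 1.43 CPM (log2 0.36 ± 0.11, adjusted p = 0.0182), a call lost on leaving out KCl replicate 2 or 3 or KCl with NS11021 replicate 3. With BMS204352 on KCl it read 22.7 ± 0.508 CPM (log2 0.28 ± 0.11, adjusted p = 0.06). That change passed without the libraries that stood apart (adjusted p = 0.0233), with the replicate number as a block (0.0471), with the compared groups alone (0.0256), with no filter (0.0212) and without KCl replicate 1 (0.0349).

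On KCl in E0771, BMS204352 lowered Dusp1. The transcript went from 84.4, 95.3 and 78.8 CPM to 47.9, 49.1 and 58.4 CPM. No library overlapped, and the fall was 1.67-fold (log2 -0.74 ± 0.11, adjusted p = 9.49e-05), which left Dusp1 above its DMSO level of 16.7 ± 0.623 CPM. Mitochondrial reads were 0.789% to 1.032% in these libraries and 0.678% to 0.739% in KCl alone, and their part in the result was not tested. With NS11021 on KCl it read 74.7, 71.6 and 69.3 CPM, each below the lowest KCl library, but the difference did not pass (log2 -0.26 ± 0.11, adjusted p = 0.115). It did by DESeq2 (adjusted p = 0.0481), and without the 3 libraries that stood apart (adjusted p = 0.00481). With NS11021 on KCl 3 of 8 members were higher and 0 lower, against 17.2% of all genes called and 9.59% higher. With BMS204352 2 were higher and 1 lower, against 19.9% called (9.85% higher and 10.1% lower).

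The layout, with each compound given without and with KCl, let the interaction be tested. In E0771 the BMS204352 effect on Dusp1 was a rise without KCl (log2 0.45) and a fall on KCl (log2 -0.74), an interaction of -1.19 ± 0.16 (adjusted p = 0.000685). For Dusp4 the rise was 0.57 without KCl and 0.18 on KCl, an interaction of -0.39 ± 0.08 (adjusted p = 0.00516). Both kept their calls under every alternative run. They were 2 of 8 members, where 1.62% of all genes passed, 1.06% with a negative sign. For KCl and NS11021 the interaction passed for 0 of 8 members by edgeR and DESeq2, with 2 at an unadjusted p below 0.05, and for 0.217% of all genes. Its estimate was -0.49 ± 0.16 for Dusp1 (adjusted p = 0.299) and 0.08 ± 0.10 for Dusp6 (adjusted p = 0.89). The Dusp1 interaction with NS11021 did pass without the libraries that stood apart (-0.49 ± 0.10, adjusted p = 0.00865), with the compared groups alone (0.00336) and with no filter (0.00106).

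**Figure D4:**
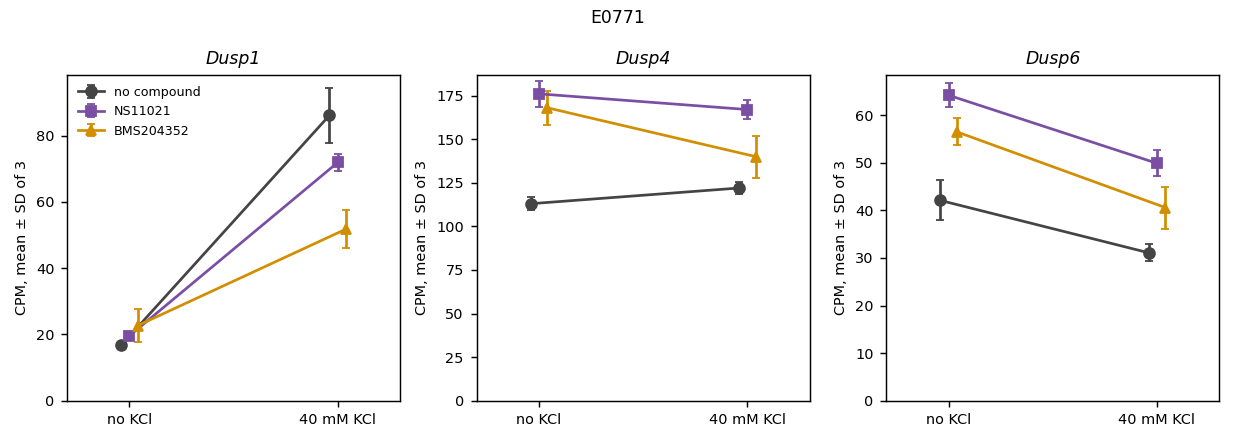
CPM (mean ± SD of 3 libraries, axis from 0) of Dusp1, Dusp4 and Dusp6 in E0771 without and with 40 mM KCl, by compound. Dusp1 climbs with KCl and ends lower with BMS204352 (51.8 CPM) than with no compound (86.1 CPM), while Dusp6 is lower with KCl in all 3 arms.

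In AT-3 the compounds added to KCl gave a single call, Spry4 with BMS204352. Spry4 read 12, 12.9 and 11.3 CPM in KCl and 17.4, 16.7 and 23.1 CPM with BMS204352 added, with no overlap (log2 0.65 ± 0.15, adjusted p = 0.0363), but leaving out any KCl library, or KCl with BMS204352 replicate 2 or 3, ended the call. It was the 1 member of 8 called, against 1.24% of all genes, 0.731% higher (183 genes in both directions). With the replicate number as a block 620 genes and 1 member were called. Dusp6 read 70.1, 72.3 and 80.2 CPM against 44.9, 50.7 and 38 CPM in KCl. These groups were well apart, yet the change stayed short of the threshold (log2 0.72 ± 0.17, adjusted p = 0.0616). Without the libraries that stood apart 3 members passed, Dusp6 (0.65 ± 0.14, adjusted p = 0.0377), Spry4 (0.48 ± 0.12, adjusted p = 0.0276) and Spry1 (0.53 ± 0.10, adjusted p = 0.00707). Of all genes 1.82% were then called.

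Dusp1 in AT-3 read 28.5, 32.7 and 38.4 CPM with KCl and BMS204352 against 27.1, 23.4 and 32.2 CPM in KCl. The ranges overlapped, and the log2 change was 0.26 ± 0.21 (adjusted p = 0.596). With NS11021 on KCl in AT-3, 0 of 8 members passed by edgeR and by DESeq2, with 2 at an unadjusted p below 0.05, and 0.0203% of all genes did. Spry1 read 79.0, 66.5 and 60.7 CPM against 50.4, 42.6 and 44.7 CPM in KCl, without overlap (log2 0.59 ± 0.24, adjusted p = 1.0), and passed without the libraries that stood apart (SE 0.09, adjusted p = 0.00321). Neither interaction passed for any member in AT-3 by edgeR or DESeq2, none had an unadjusted p below 0.05, and 0.0% of all genes passed either. The interval of the Dusp1 interaction with BMS204352 in AT-3 ran from -1.19 to 0.13 (log2, 95%).

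Set against each other at the same concentration and time, the compounds differed in AT-3 and on KCl in E0771. These were 4 pairs, 1 for each line with and without KCl, and p-values were adjusted over all genes within each pair. In AT-3 Dusp6 was 1.84-fold lower with NS11021 than with BMS204352 (log2 -0.88 ± 0.18, adjusted p = 0.0181), Spry4 1.68-fold lower (-0.75 ± 0.15, adjusted p = 0.00995) and Spry2 1.3-fold lower (-0.38 ± 0.09, adjusted p = 0.0322). That is 3 of 8, against 2.94% of all genes (1.39% lower), and leaving out BMS204352 replicate 3 took Dusp6 to -0.64 ± 0.14 (adjusted p = 0.0521), Spry4 to -0.53 ± 0.13 (adjusted p = 0.0568) and Spry2 to -0.26 ± 0.09 (adjusted p = 0.187). Without all the libraries that stood apart Dusp6 (-0.64 ± 0.15, adjusted p = 0.0427) and Spry4 (-0.53 ± 0.12, adjusted p = 0.0121) passed, with 1.78% of all genes called. Calls were also lost without NS11021 replicate 1 or 3 for Dusp6 and any 1 NS11021 library for Spry2. In AT-3 on KCl 0 of 8 passed by edgeR and DESeq2, with 3 at an unadjusted p below 0.05, and 0.454% of all genes did. In E0771 without KCl 0 of 8 passed by both tools, with 2 at an unadjusted p below 0.05, against 1.76% of all genes. There the 95% interval of the difference was -0.04 to 0.17 for Dusp4 and 0.03 to 0.33 for Dusp6 (log2, NS11021 minus BMS204352).

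On KCl in E0771 NS11021 left 3 of the 8 genes higher than BMS204352 did, where 4.95% of all genes differed and 3.92% were higher. They were Dusp4 at 1.2-fold (log2 0.27 ± 0.05, adjusted p = 0.00148), Dusp6 at 1.24-fold (0.31 ± 0.07, adjusted p = 0.00942) and Dusp1 at 1.4-fold (0.48 ± 0.11, adjusted p = 0.0128). For Dusp4 and Dusp6 the NS11021 libraries (163 to 173 and 47.2 to 52.7 CPM) all lay above those with BMS204352 (131 to 153 and 35.5 to 43.2 CPM). The Dusp4 call held under every alternative. That of Dusp6 was lost without KCl with NS11021 replicate 1 or KCl with BMS204352 replicate 1, and that of Dusp1 without replicate 1 or 2 of either group.

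Dusp2, a nuclear phosphatase best known from lymphocytes, and Spry1 and Spry2 in E0771 passed in no treatment comparison of that line with all libraries. Dusp2 did pass with BMS204352 in E0771 on leaving out BMS204352 replicate 2 (0.41 ± 0.13, adjusted p = 0.0195) or DMSO replicate 3 (0.42 ± 0.14, adjusted p = 0.0377). Dusp2 was close to absent in AT-3, at 6 to 26 counts per library (0.13 to 0.566 CPM), where the interval of its KCl change ran from -0.76 to 1.85 (log2, 95%). In E0771 it read 12.9, 12 and 16.4 CPM in DMSO, with group means from 13.1 ± 1.04 CPM in KCl to 16.4 ± 3.89 CPM with BMS204352. Spry1 in E0771 held 64 to 183 counts per library (1.87 to 4.51 CPM). Spry2 ranged from 14.1 to 20.1 CPM across all 18 E0771 libraries.

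Over the 12 group means, with each line centred on its own mean, the profile of Dusp6 was most like that of Spry4 (Pearson r = 0.92). Dusp4 came close to Spry2 (0.89) and Dusp6 (0.88), and Dusp1 had r = -0.04 to Dusp6 and -0.63 to Dusp5. These are descriptions over 12 points that share libraries and depth. The means include the 3 libraries that stood apart, and the correlations were not computed without them. AT-3 BMS204352 replicate 3 was the highest of its group for Dusp4, Dusp6, Spry2 and Spry4. The genes whose profile was most like that of Dusp1 among 8968 ranked genes were Hspa4l (r = 0.99) and Vasp (0.99), followed by Map1lc3a (0.981) and Furin (0.979). For Dusp6 they were Rai14 (0.979), Vat1 (0.958), Angptl2 (0.94) and Zfp697 (0.936).

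Beyond these 8 genes, 18 further transcripts that ERK is known to drive were tested in AT-3. This list was chosen with earlier results of these data known, so its counts are descriptions and no test of the list. With BMS204352 10 of the 18 were higher and 1 lower, with a median log2 change of 0.61, against 5.27% of all genes called and a median of -0.002. The list was not run with the DMSO and BMS204352 libraries alone. Etv5 and Etv4, ETS factors induced by ERK, had log2 changes of 0.70 ± 0.09 (adjusted p = 0.000249) and 0.59 ± 0.08 (adjusted p = 0.000578), and the cytokine Lif 0.51 ± 0.08 (adjusted p = 0.00167). Without the libraries that stood apart 7 were higher and 0 lower, with a median of 0.44 and 2.99% of all genes called. Etv5 (0.69 ± 0.09), Etv4 (0.51 ± 0.07) and Lif (0.43 ± 0.08) were among them. With NS11021 in AT-3, 0 of these 18 passed with all libraries, where 0.0745% of all genes did. Without those that stood apart 4 passed, where 0.971% of all genes did. On the BMS204352 effect itself, 8 of the 18 were smaller in E0771 than in AT-3 and 0 larger, with 5.01% of all genes called. The count was also 8 without the libraries that stood apart, with 3.34% called.

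With KCl the same list split. In AT-3, 3 of 18 were higher, among them Etv4 (0.44 ± 0.08) and Etv5 (0.36 ± 0.09), and 1 was lower, the cyclin gene Ccnd1 (-0.28 ± 0.07). Without the libraries that stood apart 8 were higher and 2 lower, with 8.95% of all genes called. In E0771, 5 of the 17 tested were higher and 5 lower, where 36.4% of all genes were called. The 3 with the smallest adjusted p were Ier3, an immediate-early gene, at 1.67 ± 0.06, the ETS factor gene Elk3 at 0.57 ± 0.05 and the receptor gene Epha2 at 0.43 ± 0.04. With BMS204352 in E0771, 4 of the 17 were higher and 2 lower, with Etv5 (0.34 ± 0.05) and Myc (0.37 ± 0.07) higher and Ccnd1 lower (-0.24 ± 0.05). NS11021 gave 6 higher and 3 lower there. Of all genes in E0771, 22.7% were called with BMS204352 (11.3% higher) and 26.3% with NS11021 (12.8% higher).

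Other inhibitors of the pathway gave calls in both directions in E0771. Their AT-3 calls were upward but too few to give the list a direction. Of all genes in AT-3, 4.83% were called with KCl, 0.0745% with NS11021 and 5.27% with BMS204352. The same shares in E0771 were 36.4%, 26.3% and 22.7%. Of 19 tested in AT-3, KCl gave 2 higher (Rasal2, a Ras GTPase-activating protein, 0.51 ± 0.09, and the Sprouty-related Spred1, 0.25 ± 0.05), BMS204352 gave 1 higher (the ubiquitin ligase gene Cblb, 0.49 ± 0.10) and NS11021 gave 0. In E0771, of 18, KCl gave 7 higher and 1 lower, with Dab2ip (0.38 ± 0.05) and Spred2 (0.35 ± 0.05) up and Lrig3 (-0.38 ± 0.07) down, and BMS204352 gave 5 higher and 3 lower, with Rasal2 up (0.57 ± 0.09) and Dusp9 (-0.26 ± 0.04) and Lrig1 (-0.25 ± 0.06) down. NS11021 gave 5 higher and 1 lower there. Of the 23 components of the ERK cascade itself, AT-3 had 0 called for KCl and NS11021. In E0771 7 were higher and 4 lower with KCl (Ptpn11 0.24 ± 0.04, Sos2 0.29 ± 0.05 and Braf -0.37 ± 0.06), 2 higher and 8 lower with NS11021, and 3 higher and 4 lower with BMS204352 (Hras -0.30 ± 0.06, Ksr1 -0.36 ± 0.07 and Shc1 -0.19 ± 0.05).

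Genes of the JNK and p38 cascades, which Dusp1 and Dusp4 also oppose, gave 0 of 18 calls in AT-3 for each single agent. In E0771, 5 of 16 were higher and 0 lower with KCl, led by the scaffold gene Mapk8ip1 (0.69 ± 0.07), the JNK kinase gene Map2k7 (0.39 ± 0.05) and Mapkapk2 (0.18 ± 0.05). With NS11021 0 were higher and 3 lower, and with BMS204352 1 was higher (Map2k6, 0.73 ± 0.22) and 2 lower (Mapk14, which encodes p38 alpha, -0.26 ± 0.05, and Mapk8ip1, -0.20 ± 0.07). Of the dual-specificity phosphatases outside MAPK feedback, 0 of 17 were called with KCl or NS11021 in AT-3 and 1 with BMS204352 (Ssh3, 0.31 ± 0.08). In E0771, 5 of 16 were higher and 3 lower with KCl (Dusp18 0.40 ± 0.05, Ssh1 0.42 ± 0.07 and Styx -0.58 ± 0.10), 0 higher and 1 lower with NS11021, and 0 higher and 2 lower with BMS204352 (Ptp4a2 -0.24 ± 0.04 and Dusp28 -0.75 ± 0.22). Without the libraries that stood apart, Ssh3 in AT-3 (0.24 ± 0.08, adjusted p = 0.147) and, with BMS204352 in E0771, Mapk8ip1 (-0.09 ± 0.06, adjusted p = 0.329) and Dusp28 (-0.69 ± 0.26, adjusted p = 0.0537) did not pass. In AT-3, Dusp18 (0.61 ± 0.15, adjusted p = 0.0243) was then called with BMS204352, and Mapk8ip1 (0.24 ± 0.07, adjusted p = 0.0284) and Shc1 (-0.20 ± 0.06, adjusted p = 0.0314) with KCl. The other feedback genes gave 3 higher and 3 lower with BMS204352 in E0771. The E0771 counts of these lists sit beside 36.4%, 26.3% and 22.7% of all genes called with KCl, NS11021 and BMS204352. For the AT-3 counts these shares were 4.83%, 0.0745% and 5.27%.

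**Figure D5:**
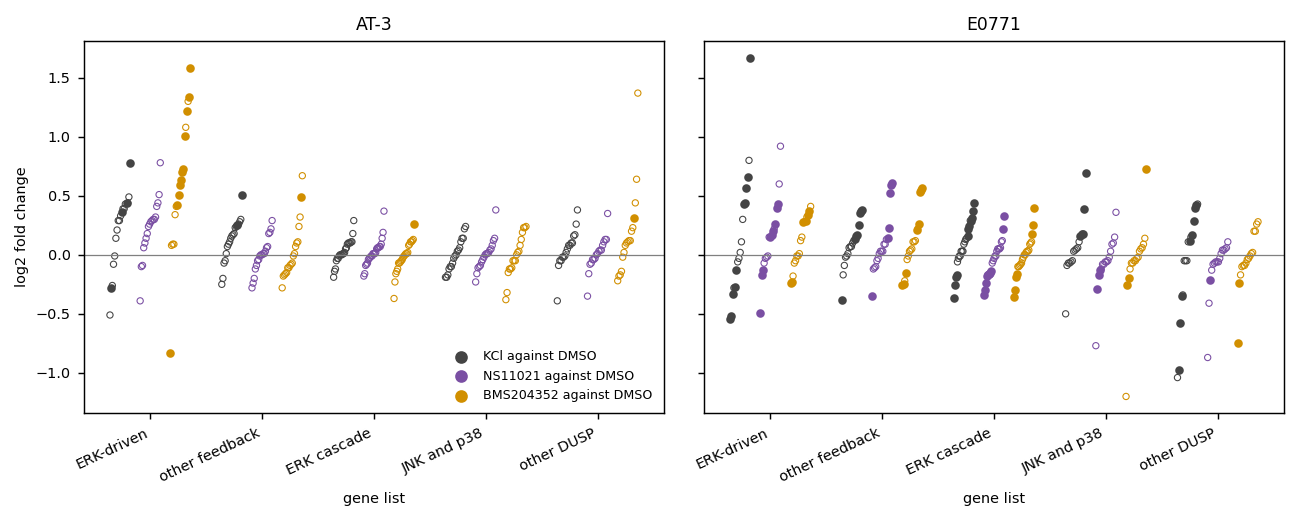
Log2 fold changes of every tested gene of 5 pathway lists in AT-3 and E0771 with KCl, NS11021 and BMS204352 against DMSO. Filled points have an adjusted p below 0.05. In AT-3 the ERK-driven list is shifted upward with BMS204352 (median 0.61), and the cascade lists stay around 0.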

How the data were processed

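The measure in all 36 libraries was the number of reads per gene. The authors deposited raw counts in 1 table, made with STAR on GRCm38 and featureCounts according to the submitters' processing notes. Per the labels' protocols total RNA went into mRNA libraries. Of the counts from 1 to 10, 84.5% were even, so counts may hold both mates of a read pair, and the precision is below that of as many independent molecules. Symbols and positions came from GENCODE vM21 on GRCm38, and 2 identifiers of human form with 6 counts were left out.

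Each line's 18 libraries were fitted together in R 4.3.3 with edgeR 4.0.16 (TMM scaling, filterByExpr with a minimum count of 10, robust quasi-likelihood fit), and all 36 together to compare lines. Within each comparison the Benjamini-Hochberg adjustment ran over all genes tested, 14772 in AT-3, 13357 in E0771 and 15969 over both, with a threshold of 0.05. SEs came from the F statistic and the fold change. CPM used the library total, and TPM the exon length per gene. Alternatives were DESeq2 1.42.0, its size factors, other filters, a replicate block, the compared groups alone, omission of the 3 libraries that stood apart, and of each library in turn. The fits were tested on simulated data. The members and gene lists were chosen with earlier results of these data known, so no list gets a test of its own. From each list the text names up to 3 called genes with the smallest adjusted p, for KCl and BMS204352 against DMSO. A list result, for BMS204352 in AT-3, is not reported here. Likeness ranked genes at a mean log2 CPM of at least 2 in both lines. No libraries of a group agreed within sampling noise.

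Replicate numbers recur across groups, and no label says what they mark. Correlations of same-numbered deviations ranged from -0.102 to 0.604, and in 6 of 30 pairs of groups all 3 exceeded 0.1, which was taken as pairing. Among them were KCl against DMSO, NS11021 against DMSO and KCl with BMS204352 against KCl in AT-3. The main fits still left the replicate number out, because no label says what it marks. Their p-values therefore ignore this pairing, and the replicate block was run only as an alternative.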

Additional observations from a re-analysis of the deposited data

Results flagged for a closer look

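Of the tests of a difference between effects, 4 passed for these genes. In E0771 the effect of BMS204352 on Dusp1 differed with and without KCl by -1.19 on the log2 scale, and that on Dusp4 by -0.39. Between the lines the KCl effect on Dusp1 was larger in E0771 by 1.01, and that on Dusp6 lower in E0771 by -0.73. Groups of 3 libraries are too small for a test of single outlying values.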

How the results depend on the processing

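The calls of Dusp1 with KCl in both lines, of Dusp5 and Dusp6 with KCl in E0771, and of Dusp4 and Dusp6 with either compound alone in E0771 held under every alternative run, and no single-gene result reversed. Of the single-gene values, 2674 kept their side of the threshold, 61 passed anew and 56 no longer passed. The counts of members called moved as follows, and the cause was not tested. Without the 3 BMS204352 libraries that stood apart the count went from 0 to 1 for NS11021 in AT-3, from 0 to 1 for NS11021 on KCl in AT-3, from 1 to 3 for BMS204352 on KCl in AT-3, from 0 to 1 for the interaction of KCl and NS11021 in E0771, and from 0 to 2 for the NS11021 difference between lines. The shares of all genes called at that setting were 0.971%, 0.259%, 1.82%, 1.05% and 7.2%, in the same order. With the compared groups alone it became 1 for NS11021 in AT-3, 0 (from 4) for BMS204352 in AT-3, 3 for BMS204352 on KCl in AT-3, 0 (from 3) for NS11021 against BMS204352 in AT-3 and 1 (from 0) for the same pair on KCl, 1 for the interaction of KCl and NS11021 in E0771 (also 1 with no filter), and 2 for the NS11021 difference. DESeq2 gave 2 for BMS204352 on KCl in AT-3, 5 for NS11021 against BMS204352 in AT-3 and 1 for the BMS204352 difference between lines.

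Leaving out each library in turn gave 0 to 7 members for BMS204352 in AT-3, 0 to 1 for BMS204352 on KCl in AT-3, 0 to 5 for NS11021 against BMS204352 in AT-3, 1 to 3 for NS11021 against BMS204352 on KCl in E0771, 1 to 2 for the KCl difference between lines, 0 to 1 for the NS11021 difference and 0 to 2 for the BMS204352 difference. The replicate block gave 1 member for the BMS204352 difference between lines and changed no other count of members by over 1.5 times.

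Over all genes the calls moved more, from 714 for KCl (393 to 1345), 11 for NS11021 (0 to 146), 779 for BMS204352 (10 to 1743), 3 for NS11021 on KCl (0 to 39) and 183 for BMS204352 on KCl (20 to 620) in AT-3, and from 434 (14 to 1070) and 67 (4 to 303) for the compound pairs there. In E0771 BMS204352 on KCl gave 2663 (down to 1759), the interactions 29 (6 to 235) and 217 (83 to 415), and the compound pairs 235 (0 to 419) and 661 (356 to 1007). The differences between lines gave 637 (270 to 1172) with NS11021 and 800 (141 to 1313) with BMS204352. Dusp2 in AT-3, at 26 counts or fewer, and Spry1 in E0771, at 183 or fewer, are limited by depth.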
